A study of Homo sapiens with 27 samples.

Results

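The comparison described here is of MDA-MB-231 cells given Compound Kushen Injection (CKI) for 48 h with untreated MDA-MB-231 cells, and its members are 3 CKI and 3 untreated libraries of the 27 RNA-seq libraries in the series. They were chosen by their labels. MDA-MB-231, a human cell line from a breast adenocarcinoma, lacks the estrogen receptor and is mesenchymal in shape. CKI is an aqueous extract of the roots Kushen and Baituling that contains alkaloids such as matrine and oxymatrine. It was used at 1 mg/ml, a dilution labelled as 1 in 20. The controls received no agent, and no vehicle group of this line was analysed. The cells were grown in DMEM with fetal bovine serum. The other groups of the line received 5-fluorouracil (5-FU, a thymidylate synthase inhibitor) at 10 µg/ml or CKI with 5-FU, and the human epidermoid carcinoma line A431 was given no agent or the same dose of CKI, all for 48 h with 3 libraries a group. Nothing in the labels says whether replicates were separate cultures, so p-values measure the spread between these libraries, which may be technical.

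The 6 libraries held 19871048 to 22809339 counts each, so 3 counts, taken here as the floor of what a level can show, correspond to 0.132 to 0.151 CPM, which are counts scaled to a common library size. Untreated replicate 1 stood apart from the other untreated libraries. Across genes, its log2 difference from untreated replicates 2 and 3 followed the GC content of the transcripts (Spearman rho = -0.656 and -0.644, against -0.138 between replicates 2 and 3 and -0.042 to -0.107 among the CKI libraries). These are descriptions over genes, which are not independent replicates. List counts are therefore given with and without this library. Leaving it out turned the relation with GC content and did not remove it. The log2 fold change correlated with GC content at rho = 0.112 with all 6 libraries and -0.135 without this library. With offsets for GC content and length rho was -0.004. Counts without this library are thus not free of that relation. Markers of the line itself were present in all 6 libraries, with a summed level of 7180 to 7420 CPM in the untreated and 5370 to 5470 CPM in the CKI libraries over 10 genes. Of 12 luminal breast genes, ESR1, FOXA1 and PGR stayed under 1 CPM in all 6 libraries, and the summed level of the list was 2450 to 2590 CPM in the untreated and 1890 CPM in each CKI library. Of 12 keratinocyte and A431 genes, 10 stayed under 1 CPM throughout, and of these 10 IVL and SPRR1B were at 0. All 12 together summed to 155 to 250 CPM in the untreated and 189 to 203 CPM in the CKI libraries. The 7 serum and blood cell genes summed to 13.9 to 15.5 CPM and 8.41 to 10.6 CPM, with the T cell gene CD3E among those at 0. The part of these differences in the results was not tested.

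Several regulatory systems recur in the results. The aryl hydrocarbon receptor binds planar aromatic compounds and switches on cytochrome P450 genes of the CYP1 family, which oxidise such compounds. SREBP2, a membrane-bound transcription factor released when the endoplasmic reticulum runs low in sterol, activates the enzymes of cholesterol synthesis, whereas the liver X receptors respond to oxysterols and activate cholesterol export. NRF2, held by KEAP1 until electrophiles or oxidants modify that protein, activates genes for glutathione, thioredoxin and NADPH supply. MDA-MB-231 cells are known for high matrix metalloproteinase and inflammatory cytokine expression.

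Among 13999 tested genes, 526 were over 2-fold higher (3.76%) and 309 over 2-fold lower (2.21%) in CKI-treated cells at an adjusted p under 0.05, in edgeR's quasi-likelihood test with Benjamini-Hochberg adjustment. By the adjusted p alone, which is the criterion for the list members below, 2429 genes were higher (17.4%) and 2637 lower (18.8%). Without untreated replicate 1 these counts were 3582 higher (25.2%) and 3780 lower (26.6%) of 14193 tested. Of the over 2-fold genes, 114 rose and 41 fell by more than 4-fold, and the 3 CKI levels lay outside the 3 untreated levels for 522 of the 526 and 302 of the 309. These genes were picked for a small adjusted p and a large change, so such separation follows largely from the choice. The share over all tested genes is not given here. Protein-coding genes made up 435 of the higher and 282 of the lower genes, and long non-coding RNAs 76 and 21.

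The largest increase among genes with a mean of at least 5 CPM was in CYP1A1, the aryl hydrocarbon receptor's most responsive target (chr15:75011883-75017877 of GRCh37, minus strand). It was measured at 1.80, 1.07 and 0.898 CPM in the untreated libraries and 95.0, 96.1 and 100.3 CPM in the CKI libraries (log2 fold change 6.28 ± 0.15 SE, adjusted p = 1.52e-10). The CKI libraries lay within a narrow band and far above every untreated library. HSD11B1, which regenerates cortisol from cortisone, was at 1.22, 1.40 and 1.5 CPM in the untreated libraries and 15.8, 15.3 and 14.1 CPM in the CKI libraries (log2 fold change 3.45 ± 0.13 SE, adjusted p = 5.74e-09). IL24, a cytokine of the IL-10 family, was at 1.54, 1.91 and 2.49 CPM in the untreated libraries and 22.2, 24.8 and 24.0 CPM in the CKI libraries (log2 fold change 3.57 ± 0.13 SE, adjusted p = 4.66e-09). In neither gene did the groups overlap. MMP1, the interstitial collagenase (chr11:102660132-102668891), rose from 30.3, 26.6 and 27.7 CPM to 210.3, 218 and 219.5 CPM (log2 fold change 2.94 ± 0.066 SE, adjusted p = 1.52e-10). TNFSF15, a TNF family cytokine that acts on endothelial and T cells, was at 19.4, 21.5 and 20.8 CPM in the untreated libraries and 91.0, 108 and 104 CPM in the CKI libraries (log2 fold change 2.29 ± 0.076 SE, adjusted p = 2.97e-09). Both genes separated the groups without overlap and were among the 5 increases of smallest adjusted p, together with CYP1A1, AKR1B1 and FHL1.

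Other large increases were in pregnancy-specific glycoproteins, aldo-keto reductases and structural genes. PSG1 and PSG9, secreted glycoproteins of the placenta, had log2 fold changes of 3.48 and 3.15, the hair keratin-associated gene KRTAP2-3 one of 2.98, and AKR1C1, which reduces progesterone and xenobiotic ketones, one of 2.88. PSG, KRTAP and AKR1C genes have near-identical relatives, so the split of their reads between members is uncertain. FBXO2, a ubiquitin ligase subunit that recognises N-glycans, was at 4.24, 5.88 and 4.49 CPM in the untreated libraries and 30.3, 27.3 and 27.5 CPM in the CKI libraries (log2 fold change 2.54 ± 0.13 SE, adjusted p = 6.78e-08). TRNP1, a nuclear regulator of neural progenitors, had a log2 fold change of 2.5. AKR1B1, the aldose reductase of the polyol pathway, was at 177, 184 and 180.0 CPM in the untreated libraries and 549, 566 and 549 CPM in the CKI libraries (log2 fold change 1.62 ± 0.049 SE, adjusted p = 1.72e-09), and the LIM-domain gene FHL1 also rose (log2 fold change 2.01 ± 0.066 SE, adjusted p = 2.97e-09).

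The largest decrease among genes of that level was in CHI3L2, a chitinase-like secreted protein, at 23.0, 18.4 and 18.2 CPM in the untreated libraries and 0.919, 1.27 and 1.16 CPM in the CKI libraries (log2 fold change -4.14 ± 0.23 SE, adjusted p = 1.28e-07). ABCA1, which exports cholesterol to apolipoprotein A1 (chr9:107543287-107690436, minus strand), fell from 103, 124 and 134 CPM to 13.7, 13.6 and 11.9 CPM (log2 fold change -3.20 ± 0.12 SE, adjusted p = 4.66e-09). The untreated libraries of both genes lay far above all CKI libraries. HAS2, a hyaluronan synthase, was at 39.8, 38.0 and 39.3 CPM in the untreated libraries and 5.26, 6.72 and 4.81 CPM in the CKI libraries (log2 fold change -2.80 ± 0.12 SE, adjusted p = 2.06e-08). CEMIP, which degrades hyaluronan, was at 194, 238 and 248 CPM in the untreated libraries and 32.1, 33.9 and 37.1 CPM in the CKI libraries (log2 fold change -2.72 ± 0.11 SE, adjusted p = 7.89e-09). The synthase and the degrading protein thus were both lower, and neither overlapped between groups. VCAM1, an adhesion receptor for leukocytes, was at 53.7, 61.8 and 61.1 CPM in the untreated libraries and 9.90, 11.7 and 9.26 CPM in the CKI libraries (log2 fold change -2.51 ± 0.11 SE, adjusted p = 2.06e-08). TNFSF10, the death ligand TRAIL, was at 372, 255 and 247 CPM in the untreated libraries and 70.0, 73.4 and 68.7 CPM in the CKI libraries (log2 fold change -2.04 ± 0.13 SE, adjusted p = 4.33e-07), with untreated replicate 1 the highest of the 6.

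Further decreases were in IGFBP1, an insulin-like growth factor carrier (log2 fold change -2.09), SCG2, a secretory granule protein (-2.03), LGALS12, a galectin (-1.98), and HLA-DRA, the alpha chain of the MHC class II molecule DR (-1.74), whose relatives may share its reads. TIMP3, the matrix-bound inhibitor of metalloproteinases, fell from 849, 917 and 923 CPM to 331, 340.1 and 350.0 CPM (log2 fold change -1.40 ± 0.052 SE, adjusted p = 5.74e-09) and was, with ABCA1, CEMIP, HAS2 and IGFBP1, among the 5 decreases of smallest adjusted p. SCG2 was at 56.8, 28.7 and 29.4 CPM in the untreated libraries and 10.5, 8.56 and 9.01 CPM in the CKI libraries. Its untreated replicate 1 lay above both other untreated libraries, and its log2 fold change without that library was -1.64.

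**Figure D1:**
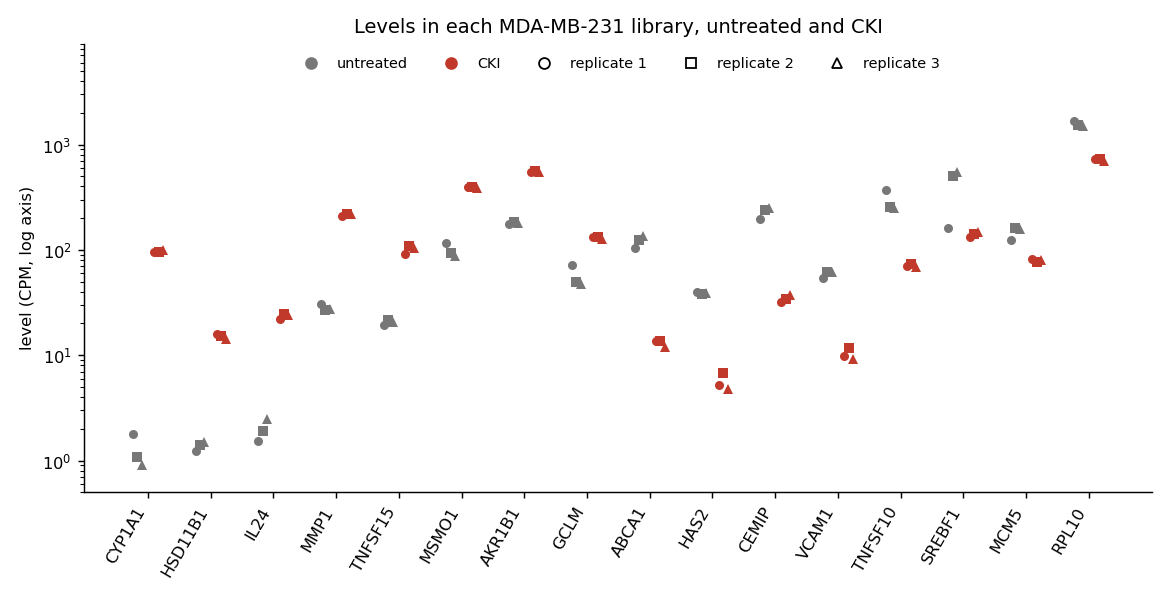
Level of 16 genes (x axis) in each library, in CPM on a log axis. Grey marks are the untreated and red marks the CKI libraries, and the shape gives the replicate number. The CKI libraries of CYP1A1 sit at 95.0, 96.1 and 100.3 CPM, far above the untreated ones, and untreated replicate 1 of SREBF1 sits at 161 CPM, close to the CKI libraries.

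**Figure D2:**
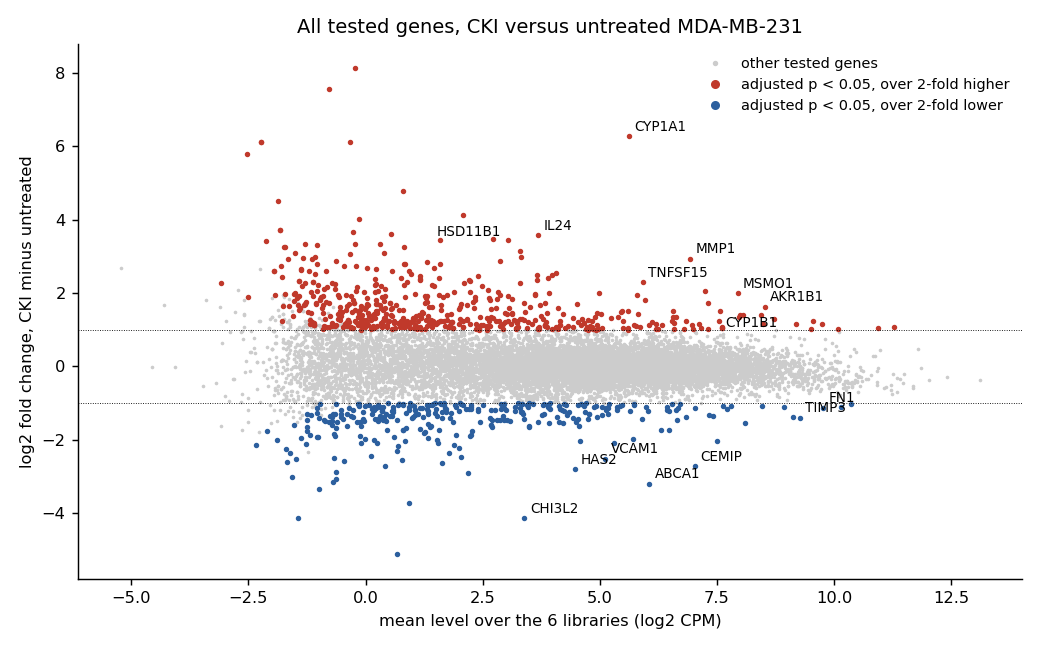
Log2 fold change (y axis, CKI minus untreated) against the mean level over the 6 libraries (x axis, log2 CPM) for the 13999 tested genes. Red points are the 526 genes over 2-fold higher and blue points the 309 over 2-fold lower at an adjusted p under 0.05, the dotted lines mark 2-fold, and CYP1A1 at 6.28 lies apart from other genes of its level.

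Targets of the aryl hydrocarbon receptor were the first list examined. 6 of 12 tested members were higher and 1 lower (median log2 fold change 0.96, against -0.008 over all tested genes), and the counts were 7 higher and 1 lower without untreated replicate 1. CYP1B1, an estradiol 4-hydroxylase, was at 116, 90.0 and 90.0 CPM in the untreated libraries and 276, 285 and 281 CPM in the CKI libraries (log2 fold change 1.51 ± 0.09 SE, adjusted p = 2.6e-07), so that its groups did not overlap. The other members that rose were ALDH3A1, an aldehyde dehydrogenase, with a log2 fold change of 3.35, TIPARP, a mono-ADP-ribosyltransferase that feeds back on the receptor, at 0.94, the quinone reductase NQO1 at 1.05, and the cytochrome P450 CYP2S1 at 0.98. ALDH3A1 was near the floor in untreated cells, at 0.159, 0.420 and 0.0499 CPM, and at 2.5, 2.16 and 2.08 CPM with CKI, and its log2 fold change ranged from 2.89 to 4.37 over the left-out libraries, the highest being without untreated replicate 2. The receptor gene itself, AHR, was lower (145, 143 and 148 CPM in the untreated libraries and 111, 112 and 112 CPM in the CKI libraries, log2 fold change -0.38 ± 0.049 SE, adjusted p = 0.000101). AHRR, its repressor and also a target, had 1.01, 0.793 and 0.948 CPM in the untreated libraries and 1.38, 1.08 and 1.62 CPM in the CKI libraries (adjusted p = 0.0696) and did not pass, except without CKI replicate 2 (log2 fold change 0.72, adjusted p = 0.0435). In the promoter windows of RefSeq (build GRCh38.p14, 250 bases before to 50 after the start, found for 11235 of the 13999 tested genes), the letters TNGCGTG of the xenobiotic response element, searched on both strands, occurred in 3 of the list's 10 tested genes with a window, in 7.2% of all tested genes' windows and in 5.99% of those of genes over 2-fold higher. The 3 were NQO1, which rose, and AHRR and NFE2L2, the gene of NRF2. The latter 2 did not pass with all 6 libraries (adjusted p = 0.0696 and 0.971). The CYP1A1 window held no match, which says only that these letters are not in that window.

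Steroid and xenobiotic enzymes and transporters gave 10 higher and 5 lower of 20 (10 higher and 6 lower without untreated replicate 1). Several are also aryl hydrocarbon receptor or NRF2 targets, so the lists overlap. AKR1C1 was at 2.01, 1.82 and 1.40 CPM in the untreated libraries and 12.9, 14.4 and 11.2 CPM in the CKI libraries (log2 fold change 2.88 ± 0.15 SE, adjusted p = 8.18e-08), and its relative AKR1C2 at a log2 fold change of 2.78. The members that fell included the steroid sulfatase STS (-0.61), the sulfotransferase SULT1A1 (-1.43) and HSD17B11 (-0.49), which oxidises 17-beta-hydroxysteroids.

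Cholesterol synthesis rose almost as a whole. 19 of 21 tested members were higher and 1 lower, and 14 passed 2-fold (median log2 fold change 1.16). The counts were 19 higher and 1 lower without untreated replicate 1, and 19 higher and 0 to 1 lower when each of the other libraries was left out. MSMO1, the sterol C4-methyl oxidase, changed most, from 116, 93.4 and 87.5 CPM to 397, 394 and 386 CPM (log2 fold change 1.99 ± 0.09 SE, adjusted p = 2.37e-08). SQLE, the squalene epoxidase, was at 25.5, 21.6 and 22.3 CPM in the untreated libraries and 66.7, 66.2 and 66.3 CPM in the CKI libraries (log2 fold change 1.52 ± 0.071 SE, adjusted p = 2.92e-08). DHCR7, which reduces 7-dehydrocholesterol, was at 104, 159 and 157 CPM in the untreated libraries and 361, 353 and 386 CPM in the CKI libraries (log2 fold change 1.39 ± 0.13 SE, adjusted p = 1.12e-05), its untreated replicate 1 being the lowest library. Every CKI level of these genes exceeded every untreated level.

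Other steps of the pathway rose as well. HMGCS1, which makes HMG-CoA, was at 70.9, 48.2 and 49.6 CPM in the untreated libraries and 141, 144 and 140.2 CPM in the CKI libraries (log2 fold change 1.34 ± 0.12 SE, adjusted p = 7.58e-06). Its untreated replicate 1 was the highest untreated library, and without it the log2 fold change was 1.54. LSS, which closes the sterol ring, rose less (136, 173 and 187 CPM in the untreated libraries and 246, 256 and 261 CPM in the CKI libraries, log2 fold change 0.62 ± 0.10 SE, adjusted p = 0.000528). PMVK, phosphomevalonate kinase, was the exception in direction (log2 fold change -0.24 ± 0.064 SE, adjusted p = 0.0108), and its call was lost when CKI replicate 2 was left out. LBR, which shares a reductase step with TM7SF2, did not pass (log2 fold change -0.11, adjusted p = 0.303).

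**Figure D3:**
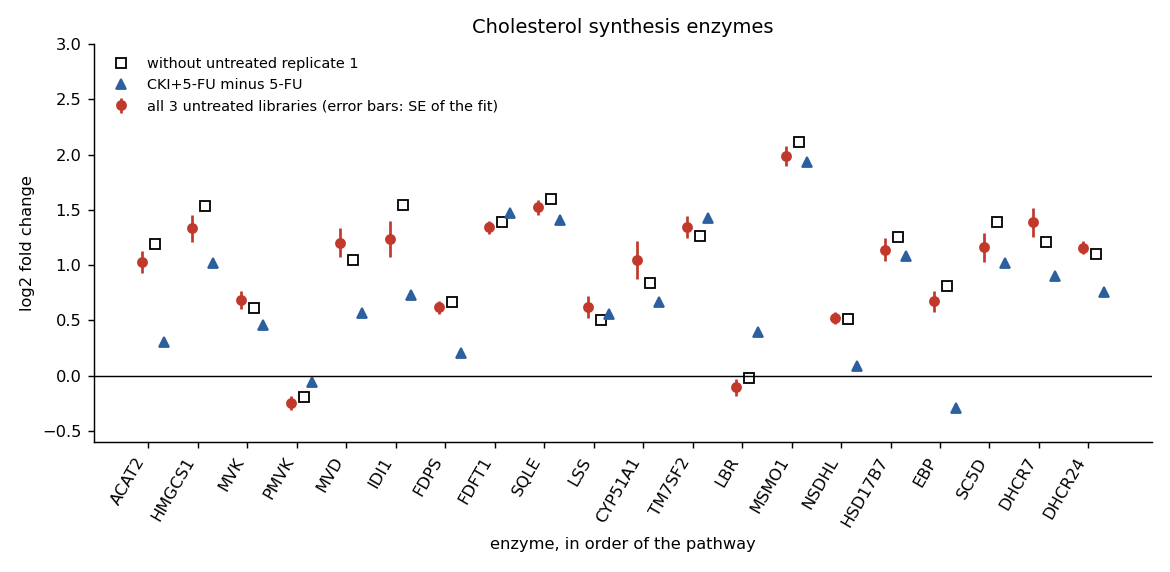
Log2 fold change (y axis) of 20 of the 21 tested cholesterol synthesis genes (x axis, in order of the pathway). Red points are CKI minus untreated with the SE derived from the F statistic, open squares the same without untreated replicate 1, and blue triangles CKI with 5-FU minus 5-FU alone. MSMO1 is highest at 1.99, and PMVK at -0.24 lies below 0.

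Genes that sense, import and export sterol did not follow as a block. Among those for sensing and uptake, 6 of 14 tested members were higher and 2 lower (8 higher and 3 lower without untreated replicate 1, and 3 to 6 higher and 2 lower when each of the other libraries was left out). INSIG1, which retains the SREBP complex in the endoplasmic reticulum, was at 195, 169 and 168 CPM in the untreated libraries and 305, 313 and 310.1 CPM in the CKI libraries (log2 fold change 0.80 ± 0.062 SE, adjusted p = 2.16e-06). STARD4, a sterol carrier, had a log2 fold change of 0.45. SREBF2, which encodes SREBP2, did not pass, with 121, 208 and 232 CPM in the untreated libraries and 224, 229 and 244 CPM in the CKI libraries (adjusted p = 0.184). Its untreated replicate 1 was well below the other untreated libraries, and without it the log2 fold change was 0.079 (adjusted p = 0.261). SREBF2 passed as higher without untreated replicate 3 (log2 fold change 0.50, adjusted p = 0.04) and with offsets for GC content and length (adjusted p = 0.00997).

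Several liver X receptor targets fell, against the direction of the synthesis enzymes. 5 of 9 tested members were lower and 1 higher (1 higher and 6 lower without untreated replicate 1, and 0 to 1 higher and 5 lower when each of the other libraries was left out), and 4 fell over 2-fold. ABCG1, another cholesterol exporter, was at 2.70, 3.73 and 4.14 CPM in the untreated libraries and 0.306, 0.188 and 0.304 CPM in the CKI libraries (log2 fold change -3.71 ± 0.31 SE, adjusted p = 3.85e-06). MYLIP, a ubiquitin ligase, was at 35.1, 34.5 and 37.4 CPM in the untreated libraries and 12.3, 11.8 and 10.3 CPM in the CKI libraries (log2 fold change -1.63 ± 0.078 SE, adjusted p = 3.88e-08). Neither gene overlapped between groups. SREBF1, which encodes the lipogenic factor SREBP1, was at 161, 507 and 552 CPM in the untreated libraries and 132, 139.9 and 147 CPM in the CKI libraries (log2 fold change -1.54 ± 0.33 SE, adjusted p = 0.00325). Untreated replicate 1 was near the CKI libraries, and the log2 fold change without it was -1.92. SCD, the stearoyl-CoA desaturase, fell by less (-0.49). Fatty acid synthesis as a list had 4 of 13 tested members higher and 2 lower (5 higher and 3 lower without untreated replicate 1), with ME1, the malic enzyme that supplies NADPH (0.98), and ACSS2, acetyl-CoA synthetase (0.84), higher and FADS1 lower (-0.34).

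In none of the 16 cholesterol synthesis genes with a RefSeq window were the letters CACCNCAC, one form of the sterol response element, found on either strand, against 5.7% of all tested genes' windows. This describes these windows and this spelling of the motif.

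NRF2 targets formed the other list that rose nearly throughout, with 22 of 26 tested members higher, 1 lower and 12 over 2-fold higher (median log2 fold change 0.98). The counts were 24 higher and 1 lower without untreated replicate 1, and 22 higher and 1 lower when each of the other libraries was left out. GCLM, the modifier subunit of the enzyme that starts glutathione synthesis, was at 71.8, 49.2 and 46.9 CPM in the untreated libraries and 133, 132 and 128 CPM in the CKI libraries (log2 fold change 1.22 ± 0.13 SE, adjusted p = 2.03e-05). SLC7A11, which imports cystine, was at 49.3, 49.1 and 53.3 CPM in the untreated libraries and 109.5, 109 and 111 CPM in the CKI libraries (log2 fold change 1.12 ± 0.063 SE, adjusted p = 1.69e-07). NQO1, a quinone reductase, was at 162, 110.2 and 107 CPM in the untreated libraries and 268, 258 and 262 CPM in the CKI libraries (log2 fold change 1.05 ± 0.13 SE, adjusted p = 6.18e-05). Each of these genes had all CKI levels above all untreated levels. AKR1B10, a retinal and aldehyde reductase, went from 0.741, 0.187 and 0.449 CPM to 7.20, 10.0 and 6.68 CPM (log2 fold change 4.13 ± 0.34 SE, adjusted p = 3.45e-06). HMOX1, heme oxygenase, rose by less (17.3, 15.7 and 15.2 CPM in the untreated libraries and 22.2, 22.9 and 22.1 CPM in the CKI libraries, log2 fold change 0.48 ± 0.077 SE, adjusted p = 0.000473). The inhibitor KEAP1 was the member that fell (-0.30), and NFE2L2, the gene of NRF2, did not pass (adjusted p = 0.971), though it did without untreated replicate 1 (log2 fold change 0.17, adjusted p = 0.0114).

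Of 19 NRF2 list members with a RefSeq window, 5 held the antioxidant response element letters TGACNNNGC on either strand (26.3%), against 14.98% of the windows of all tested genes, 15.9% of those of genes over 2-fold higher and 10.3% of those over 2-fold lower. The 160 bases before the start of GCLM, ME1 and TXNRD1, which rose together, are printed below 5′ to 3′ on the strand of the gene (GRCh38.p14), with the matches that lie wholly within them in capitals.
GCLM, chr1:93909431-93909590, minus strand: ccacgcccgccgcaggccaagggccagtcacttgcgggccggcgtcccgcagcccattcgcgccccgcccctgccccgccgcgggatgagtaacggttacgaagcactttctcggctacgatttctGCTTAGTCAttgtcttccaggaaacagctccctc
ME1, chr6:83431052-83431211, minus strand: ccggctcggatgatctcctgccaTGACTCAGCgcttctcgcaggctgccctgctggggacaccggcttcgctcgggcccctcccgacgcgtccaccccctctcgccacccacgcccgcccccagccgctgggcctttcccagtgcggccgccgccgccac
TXNRD1, chr12:104215619-104215778, plus strand: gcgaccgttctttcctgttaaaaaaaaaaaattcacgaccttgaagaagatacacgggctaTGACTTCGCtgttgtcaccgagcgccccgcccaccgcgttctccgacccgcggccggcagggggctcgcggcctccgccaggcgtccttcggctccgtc

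These matches stand beside increases of 1.22 for GCLM, 0.98 for ME1 and 1.25 for TXNRD1, the thioredoxin reductase, on the log2 scale. A match is a description of the letters and was not tested as a binding site. PIR and PGD, also higher, were the other matching members.

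Among stress programs outside NRF2, the ATF4 list, of amino acid synthesis and import genes activated by the integrated stress response, had 12 of 25 tested members lower and 3 higher (4 higher and 17 lower without untreated replicate 1). ASNS, asparagine synthetase, was at 128, 134 and 127 CPM in the untreated libraries and 67.0, 64.5 and 65.0 CPM in the CKI libraries (log2 fold change -0.98 ± 0.058 SE, adjusted p = 2.47e-07). PHGDH, the entry to serine synthesis, had a log2 fold change of -0.97, and NUPR1, a stress-induced chromatin protein, one of -1.15. DDIT3 and ATF3, stress-induced transcription factors, did not pass. DDIT3 was at 12.1, 8.68 and 9.13 CPM in the untreated libraries and 11.9, 11.1 and 9.52 CPM in the CKI libraries, and without untreated replicate 1 it was higher (log2 fold change 0.29, adjusted p = 0.0269). ATF3 was at 18.4, 16.4 and 16.0 CPM in the untreated libraries and 15.4, 16.6 and 15.3 CPM in the CKI libraries, and the groups overlapped in both. STC2, a secreted glycoprotein, was at 0.265, 0.420 and 1.15 CPM in the untreated libraries and 3.32, 2.96 and 2.38 CPM in the CKI libraries. Untreated replicate 3 was the highest untreated library, and the log2 fold change of STC2 was 2.22 with it and 3.03 without it. The other higher members were SLC7A11, which NRF2 also regulates, and PPP1R15A, a phosphatase subunit (0.28).

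The unfolded protein response list had 2 higher and 7 lower of 21 (3 higher and 11 lower without untreated replicate 1, and 1 to 2 higher and 6 to 7 lower when each of the other libraries was left out), with HSP90B1, an endoplasmic reticulum chaperone (-0.57), and XBP1, a transcription factor of the response (-0.51), among the lower. Cytosolic heat shock genes gave 3 higher and 5 lower of 17 (4 higher and 7 lower without untreated replicate 1, and 3 higher and 3 to 7 lower when each of the other libraries was left out), the inducible HSP70 gene HSPA1A being at 0.46 and the mitochondrial chaperonin HSPD1 at -0.46. Of 7 metallothionein list members, MT1X and MT2A, which bind zinc and copper, rose, MT2A from 1289, 1127 and 1049 CPM to 1655, 1522 and 1592 CPM (log2 fold change 0.46 ± 0.071 SE, adjusted p = 0.000367). Without untreated replicate 1, 4 were higher. Metallothioneins are near-identical, so their counts are uncertain.

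Many genes of DNA synthesis fell by modest amounts. In the replication list, 19 of 40 tested members were lower and 0 higher, none over 2-fold (median log2 fold change -0.28). The counts were 5 higher and 23 lower without untreated replicate 1, and 0 to 1 higher and 17 to 20 lower when each of the other libraries was left out. MCM5, a subunit of the replicative helicase, was at 124, 161 and 156 CPM in the untreated libraries and 82.3, 76.8 and 79.8 CPM in the CKI libraries (log2 fold change -0.89 ± 0.087 SE, adjusted p = 1.38e-05). MCM2, of the same helicase, had a log2 fold change of -0.69 and MCM6 one of -0.83. CDC45, which joins the active helicase, was at 54.4, 50.3 and 46.8 CPM in the untreated libraries and 38.5, 37.2 and 36.2 CPM in the CKI libraries (log2 fold change -0.44 ± 0.065 SE, adjusted p = 0.00028), and GINS2 of the GINS complex had a log2 fold change of -0.87. All CKI levels of these genes lay below all untreated levels.

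MCM6 is shown because its window holds the E2F letters TTTGGCGC more than once. They occurred on either strand in 6 of 33 replication genes with a window (18.2%), in 1.03% of the windows of all tested genes and in 0.93% of those of genes over 2-fold lower. Of these 6 genes, MCM6, POLE2 (log2 fold change -0.60) and POLA1 (-0.57) were lower. POLE, CDC6 and GINS1 did not pass (adjusted p = 0.157, 0.474 and 0.084). The 160 bases before the start of MCM6 (GRCh38.p14, strand of the gene, matches in capitals) read as follows.
MCM6, chr2:135876444-135876603, minus strand: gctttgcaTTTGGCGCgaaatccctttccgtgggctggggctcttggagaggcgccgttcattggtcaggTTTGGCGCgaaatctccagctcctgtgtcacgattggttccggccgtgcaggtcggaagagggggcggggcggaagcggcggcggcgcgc

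MCM6 was at 114, 105 and 104 CPM in the untreated libraries and 60.4, 57.7 and 63.9 CPM in the CKI libraries (log2 fold change -0.83 ± 0.063 SE, adjusted p = 1.84e-06). Nucleotide synthesis genes had 17 of 26 tested members lower and 1 higher (1 higher and 17 lower without untreated replicate 1, and 0 to 1 higher and 12 to 17 lower when each of the other libraries was left out). TYMS, thymidylate synthase and the target of 5-FU, was at 151, 114 and 109 CPM in the untreated libraries and 62.1, 61.3 and 58.9 CPM in the CKI libraries (log2 fold change -1.04 ± 0.10 SE, adjusted p = 1.57e-05). DUT, which clears dUTP, had a log2 fold change of -0.72 and SHMT2, the mitochondrial serine hydroxymethyltransferase, one of -0.57. In G1 and S phase control, 11 of 24 were lower and 4 higher (6 higher and 13 lower without untreated replicate 1). The activator E2F2 (-1.46), the repressor E2F8 (-1.08) and cyclin E2, CCNE2 (19.7, 14.0 and 11.6 CPM in the untreated libraries and 8.62, 7.80 and 7.79 CPM in the CKI libraries, log2 fold change -0.90 ± 0.16 SE, adjusted p = 0.000864), fell. CDKN1A, the p21 inhibitor of cyclin-dependent kinases, rose (134, 159.7 and 162 CPM in the untreated libraries and 193, 196 and 199 CPM in the CKI libraries, log2 fold change 0.37 ± 0.068 SE, adjusted p = 0.00132), as did CCND3 (0.71), whereas CCND1 did not pass (572, 815 and 832 CPM in the untreated libraries and 662, 685 and 736 CPM in the CKI libraries, adjusted p = 0.571) but was lower without untreated replicate 1 (log2 fold change -0.25, adjusted p = 4.81e-05).

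Most mitosis genes did not pass the test. 2 of 35 were higher and 7 lower, below the share over all genes on the higher side and close to it on the lower. The counts were 9 higher and 10 lower without untreated replicate 1, and 1 to 2 higher and 2 to 10 lower when each of the other libraries was left out. With offsets for GC content and length they were 5 higher and 13 lower, where 3561 of all 13999 tested genes were higher and 3509 lower. MKI67, the proliferation antigen, was at 215, 306 and 338 CPM in the untreated libraries and 289, 291 and 310.4 CPM in the CKI libraries (adjusted p = 0.792). TOP2A, topoisomerase II alpha, was at 642, 521 and 531 CPM in the untreated libraries and 567, 564 and 564 CPM in the CKI libraries (adjusted p = 0.991). CCNB1, cyclin B1, was at 393, 296 and 289 CPM in the untreated libraries and 293, 279 and 284 CPM in the CKI libraries (adjusted p = 0.149). The groups overlapped in all of them, with untreated replicate 1 at the edge of the untreated range. TOP2A was higher without that library (log2 fold change 0.10, adjusted p = 0.0414), and CCNB1 was lower without untreated replicate 3 (log2 fold change -0.27, adjusted p = 0.0475) and with offsets for GC content and length (adjusted p = 0.0187). KIF20A, a motor of cytokinesis, did fall (179.8, 142 and 139 CPM in the untreated libraries and 104, 109.7 and 104 CPM in the CKI libraries, log2 fold change -0.53 ± 0.096 SE, adjusted p = 0.00104), and the checkpoint kinase BUB1 rose (0.37). Homologous recombination and Fanconi genes had 1 higher (4.35%) and 3 lower (13.0%) of 23, both below the shares over all tested genes (17.4% and 18.8%). The counts were 5 higher and 4 lower without untreated replicate 1, and 1 higher and 1 to 6 lower when each of the other libraries was left out. FANCG was lower (-0.35) and FANCM higher (0.47).

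Cytosolic ribosomal protein genes gave the largest count of lower members, 53 of 76 with 0 higher (median log2 fold change -0.42, range -1.12 to -0.076). Without untreated replicate 1 it was 62 lower with a median of -0.26, and the lower count was 39 to 65 when each of the other libraries was left out. RPL10 was at 1663, 1524 and 1487 CPM in the untreated libraries and 728, 727 and 702 CPM in the CKI libraries (log2 fold change -1.12 ± 0.055 SE, adjusted p = 4.95e-08). RPS12 was at 696, 530.3 and 519 CPM in the untreated libraries and 337, 332 and 317 CPM in the CKI libraries (log2 fold change -0.82 ± 0.093 SE, adjusted p = 4.07e-05). RPL41, a very short coding gene, was at 1953, 1186 and 1098 CPM in the untreated libraries and 828, 810.2 and 847 CPM in the CKI libraries, with log2 fold changes of -0.77 with and -0.46 without that library. Many of these genes have processed pseudogenes, so their read counts are uncertain. Ribosome biogenesis genes had 18 of 31 lower and 0 higher (1 higher and 22 lower without untreated replicate 1), among them UTP20, a processome component (-1.13), NOP56, a core snoRNP protein (-0.78), and NPM1, nucleophosmin (2269, 1615 and 1534 CPM in the untreated libraries and 1141, 1122 and 1095 CPM in the CKI libraries, log2 fold change -0.69 ± 0.12 SE, adjusted p = 0.000698).

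Glycolysis genes had 3 higher and 8 lower of 24, and 3 higher and 15 lower without untreated replicate 1. LDHA, lactate dehydrogenase A, was at 3606, 2761 and 2702 CPM in the untreated libraries and 1810.0, 1762 and 1778 CPM in the CKI libraries (log2 fold change -0.76 ± 0.092 SE, adjusted p = 6.28e-05), below all untreated libraries in each CKI library. GAPDH (-0.58) and the triose isomerase TPI1 (-0.61) fell and the brain aldolase ALDOC rose (0.75). The hexokinase HK2 did not pass (118, 154 and 172 CPM in the untreated libraries and 151, 147 and 153 CPM in the CKI libraries, adjusted p = 0.88). The hypoxia list had 11 of 20 lower and 3 higher (5 higher and 12 lower without untreated replicate 1). VEGFA, the angiogenic growth factor, was at 540.1, 666 and 694 CPM in the untreated libraries and 517, 515 and 513 CPM in the CKI libraries (log2 fold change -0.30 ± 0.082 SE, adjusted p = 0.0137). ANGPTL4, a lipoprotein lipase inhibitor also driven by lipid-sensing receptors, rose from 5.24, 4.57 and 4.39 CPM to 25.4, 26.4 and 23.6 CPM (log2 fold change 2.41 ± 0.091 SE, adjusted p = 5.74e-09). Respiratory chain subunits had 1 higher (2.44%) and 3 lower (7.32%) of 41 and a median of -0.086 over all 6 libraries. Both shares were below those over all tested genes (17.4% and 18.8%). Without untreated replicate 1 they had 13 higher, 3 lower and a median of 0.065, and 0 to 1 higher and 2 to 6 lower when each of the other libraries was left out. With offsets for GC content and length they had 2 higher, 7 lower and a median of -0.041. Under these offsets 3561 of all 13999 tested genes were higher and 3509 lower. Lysosome and autophagy genes gave 13 higher and 2 lower of 36 (18 higher and 6 lower without untreated replicate 1, and 10 to 13 higher and 1 to 2 lower when each of the other libraries was left out), led by the sialidase NEU1 (105, 104 and 105 CPM in the untreated libraries and 215, 213 and 204 CPM in the CKI libraries, log2 fold change 1.01 ± 0.052 SE, adjusted p = 6.78e-08) and the phagophore protein WIPI1 (0.90).

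**Figure D4:**
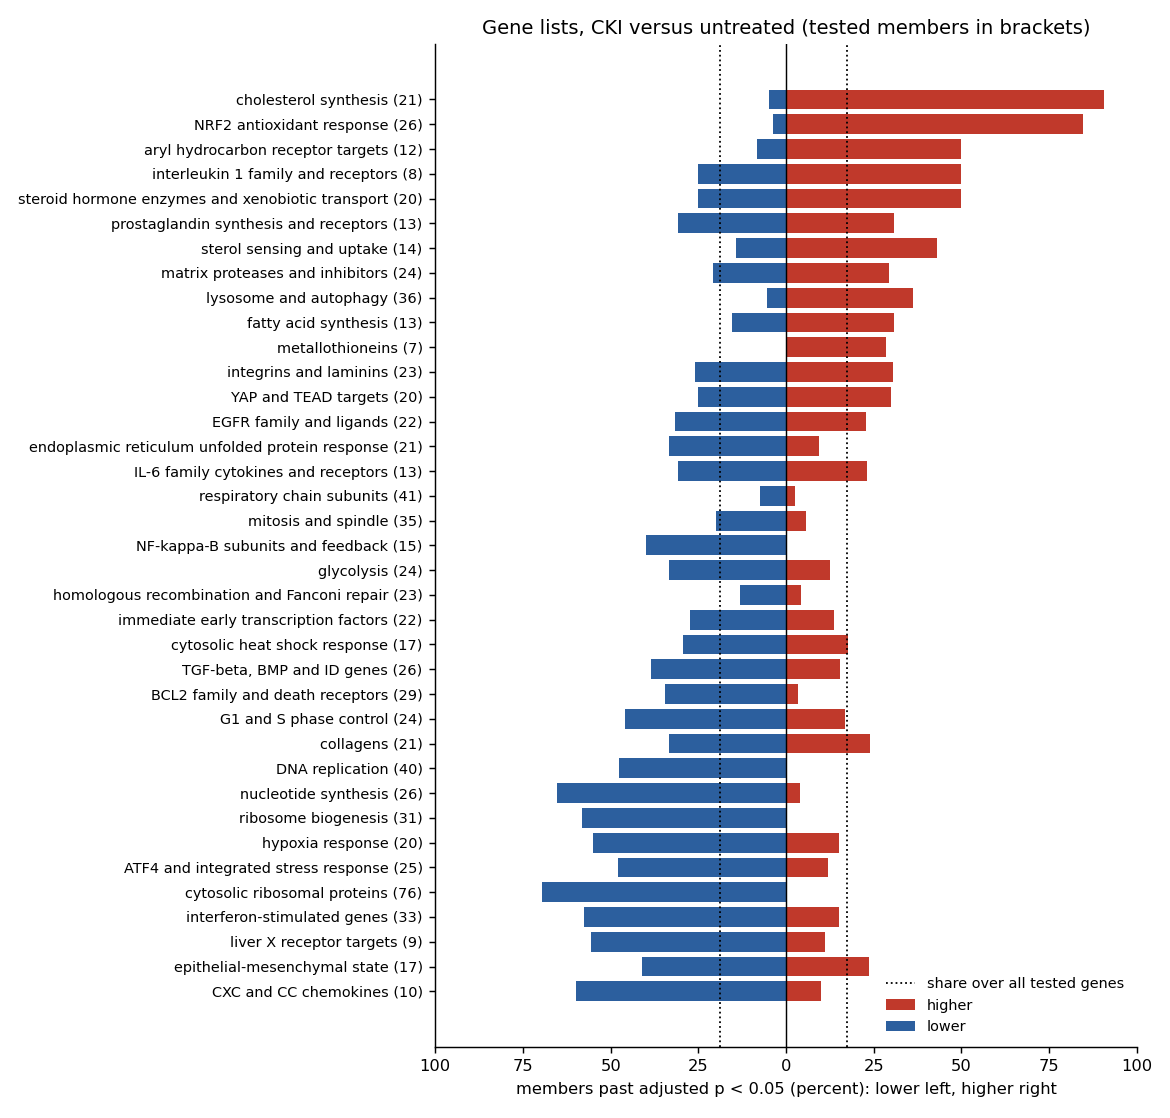
Share of the tested members of each gene list (y axis, number tested in brackets) that passed an adjusted p under 0.05, in percent (x axis), with higher members in red to the right and lower members in blue to the left. Dotted lines mark 17.4% and 18.8%, the shares over all tested genes. Cholesterol synthesis reaches 90.5% higher and cytosolic ribosomal proteins 69.7% lower.

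Interferon-stimulated genes, the antiviral program downstream of type I interferon, had 19 of 33 tested members lower and 5 higher (median log2 fold change -0.43). The counts were 9 higher and 18 lower without untreated replicate 1, and 1 to 4 higher and 15 to 20 lower when each of the other libraries was left out. OASL, an oligoadenylate synthetase-like protein, was at 32, 19.3 and 15.6 CPM in the untreated libraries and 6.89, 7.99 and 8.10 CPM in the CKI libraries (log2 fold change -1.54 ± 0.21 SE, adjusted p = 0.000166), with untreated replicate 1 the highest library and a log2 fold change of -1.19 without it. MX2, a dynamin-like restriction factor, was at 9.43, 7.56 and 7.23 CPM in the untreated libraries and 2.55, 2.82 and 3.04 CPM in the CKI libraries (log2 fold change -1.52 ± 0.14 SE, adjusted p = 1.06e-05). IFI6, which inhibits apoptosis and viral replication, moved the other way (20.3, 19.8 and 20.2 CPM in the untreated libraries and 41.6, 39.5 and 39.5 CPM in the CKI libraries, log2 fold change 1.00 ± 0.072 SE, adjusted p = 1.2e-06).

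Both directions occurred among genes whose promoters share the interferon-stimulated response element. This element was searched as GAAA, any 2 bases and GAAA again, and was found on either strand in 16 of 26 list members with a window (61.5%), in 2.8% of the windows of all tested genes, in 7.01% of those of genes over 2-fold lower and in 2.86% of those over 2-fold higher. IFI6 and OAS3 are shown as a higher and a lower gene with more than 1 match in the 160 bases before the start (GRCh38.p14, strand of the gene, matches in capitals).
IFI6, chr1:27672193-27672352, minus strand: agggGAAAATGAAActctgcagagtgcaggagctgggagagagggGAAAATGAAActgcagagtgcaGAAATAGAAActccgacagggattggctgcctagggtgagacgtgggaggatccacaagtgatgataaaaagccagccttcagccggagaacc
OAS3, chr12:112938314-112938473, plus strand: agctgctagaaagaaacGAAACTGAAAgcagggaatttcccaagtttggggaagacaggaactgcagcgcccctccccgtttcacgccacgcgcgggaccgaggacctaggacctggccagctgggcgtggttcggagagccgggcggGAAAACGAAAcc

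OAS3, an oligoadenylate synthetase, had a log2 fold change of -0.82 (adjusted p = 3.9e-05) beside the 1.0 of IFI6. The letters alone therefore did not go with 1 direction in this list.

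Inflammatory cytokines moved in both directions. Of 8 tested interleukin 1 family members and receptors, 4 were higher and 2 lower (4 higher and 2 lower without untreated replicate 1). IL1A was at 2.38, 3.45 and 3.14 CPM in the untreated libraries and 10.7, 12.9 and 11.5 CPM in the CKI libraries (log2 fold change 1.96 ± 0.14 SE, adjusted p = 1.36e-06). IL1B was at 10.8, 15.6 and 15 CPM in the untreated libraries and 23.3, 23.0 and 25.4 CPM in the CKI libraries (log2 fold change 0.79 ± 0.12 SE, adjusted p = 0.00035). IL18 was at 15.5, 12.1 and 12.6 CPM in the untreated libraries and 26.8, 26.1 and 26.3 CPM in the CKI libraries (log2 fold change 0.98 ± 0.088 SE, adjusted p = 6.75e-06). All CKI levels of these cytokines lay above all untreated levels. The antagonist IL1RN was higher, from 0.053, 0 and 0.0499 CPM to 0.357, 0.611 and 0.557 CPM, with untreated levels under the floor of 3 counts. IL1RAP, the co-receptor (-0.75), and SIGIRR, an inhibitory receptor (-1.30), fell.

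IL6, the pleiotropic cytokine, was at 95.2, 114 and 109.9 CPM in the untreated libraries and 65.0, 63.1 and 64.2 CPM in the CKI libraries (log2 fold change -0.73 ± 0.072 SE, adjusted p = 1.44e-05). IL11, which signals through the same co-receptor, rose from 51.8, 64.9 and 60.4 CPM to 242, 258 and 239.6 CPM (log2 fold change 2.06 ± 0.079 SE, adjusted p = 6.54e-09). The IL-6 family list had 3 higher and 4 lower of 13 (3 higher and 6 lower without untreated replicate 1, and 1 to 3 higher and 2 to 3 lower when each of the other libraries was left out). Chemokines had 6 of 10 lower and 1 higher (1 higher and 6 lower without untreated replicate 1). CXCL8, the neutrophil chemokine IL-8, was at 96.7, 122 and 115 CPM in the untreated libraries and 86.2, 82.3 and 81.3 CPM in the CKI libraries (log2 fold change -0.42 ± 0.08 SE, adjusted p = 0.00157). CXCL1, of the same receptor group, had a log2 fold change of -1.04 and CXCL2 one of -1.39, and CXCL16, a membrane-bound chemokine, was the member that rose (1.09). NF-kappa-B subunits and feedback genes had 6 of 15 lower and 0 higher (0 higher and 9 lower without untreated replicate 1), with the coactivator NFKBIZ at -1.13 and NFKB1, the p105 precursor of p50, at -0.54. In prostaglandin synthesis, 4 were higher and 4 lower of 13 with and without untreated replicate 1. The phospholipase PLA2G4A rose (1.29), and the inducible cyclooxygenase PTGS2 (-0.48) and the transporter SLCO2A1 (-2.04) fell.

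Matrix and adhesion genes were divided. Of matrix proteases and their inhibitors, 7 of 24 were higher and 5 lower (10 higher and 6 lower without untreated replicate 1). Beside MMP1, the tissue plasminogen activator PLAT rose from 635, 758 and 757 CPM to 1463, 1423 and 1485 CPM (log2 fold change 1.02 ± 0.067 SE, adjusted p = 5.47e-07). MMP14, the membrane collagenase, was at 1082, 1680.3 and 1734 CPM in the untreated libraries and 917, 956 and 1008 CPM in the CKI libraries (log2 fold change -0.64 ± 0.13 SE, adjusted p = 0.00297). The urokinase PLAU did not pass (489, 439.6 and 413 CPM in the untreated libraries and 495, 483 and 488 CPM in the CKI libraries, adjusted p = 0.143) but was higher without untreated replicate 1 (log2 fold change 0.20, adjusted p = 0.000495) and with offsets for GC content and length (adjusted p = 0.0186). Collagens had 5 higher and 7 lower of 21, and 5 higher and 12 lower without untreated replicate 1. COL1A2 fell (-1.91) and COL17A1, the hemidesmosomal collagen, rose (1.07). COL1A1, which encodes the other chain of the same fibril, was higher at 8.31, 19.2 and 16.9 CPM in the untreated libraries and 27.5, 30.7 and 27.0 CPM in the CKI libraries (log2 fold change 0.93 ± 0.24 SE, adjusted p = 0.00888).

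Of integrins and laminins, 7 of 23 were higher and 6 lower (8 higher and 11 lower without untreated replicate 1, and 3 to 8 higher and 5 to 6 lower when each of the other libraries was left out), with ITGA6, a laminin receptor chain, lower (-0.81) and the laminin chain LAMB3 higher (0.64). Genes of the epithelial-mesenchymal state had 7 of 17 lower and 4 higher (4 higher and 10 lower without untreated replicate 1). The mesenchymal genes FN1, fibronectin (1258, 1121 and 1224 CPM in the untreated libraries and 529, 547 and 576 CPM in the CKI libraries, log2 fold change -1.12 ± 0.058 SE, adjusted p = 6.78e-08), VIM, vimentin (-1.03), and SNAI1, a repressor of cadherin 1 (-1.18), fell, and the claudins CLDN1 (0.92) and CLDN4 (0.78), tight junction proteins, rose. CDH2, N-cadherin, is a mesenchymal gene that rose instead, from 0.159, 0.747 and 0.549 CPM to 1.84, 2.12 and 2.48 CPM (log2 fold change 2.10 ± 0.34 SE, adjusted p = 0.000514). Among the marker lists, the MDA-MB-231 list had 5 of 10 members lower and 0 higher, the luminal list 6 of 9 tested lower and 0 higher, the keratinocyte and A431 list 0 of 3 lower and 1 higher, and the serum and blood cell list 2 of 2 lower. Without untreated replicate 1 the MDA-MB-231 list had 6 lower and 1 higher, the luminal list 8 lower and 0 higher, the keratinocyte and A431 list 1 lower and 1 higher, and the serum and blood cell list 2 lower. When each of the other libraries was left out, the last of these had 1 to 2 lower.

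Signalling targets were mixed as well. TGF-beta, BMP and ID genes had 4 higher and 10 lower of 26 (5 higher and 11 lower without untreated replicate 1, and 2 to 4 higher and 6 to 11 lower when each of the other libraries was left out). ID1, an inhibitor of basic helix-loop-helix factors, was at 49.7, 49.9 and 46.7 CPM in the untreated libraries and 20.9, 20.3 and 23.2 CPM in the CKI libraries (log2 fold change -1.18 ± 0.098 SE, adjusted p = 3.62e-06). The ligand BMP6 had a log2 fold change of 1.96 and TGFB3 one of -1.83. ID3 (-0.52) lost its call without untreated replicate 1 (adjusted p = 0.0507) and without CKI replicate 1 or 3. YAP and TEAD targets had 6 higher and 5 lower of 20, and 6 higher and 10 lower without untreated replicate 1. The matricellular genes CCN2 (528, 541 and 534 CPM in the untreated libraries and 1188, 1200.5 and 1171 CPM in the CKI libraries, log2 fold change 1.15 ± 0.048 SE, adjusted p = 1.15e-08) and CCN1 (1.07) and ANKRD1 (1.01) rose, while the coactivators YAP1 (-0.58) and WWTR1 (-0.51) fell. Of EGFR family genes, 5 were higher and 7 lower of 22 (7 higher and 8 lower without untreated replicate 1), with the ligands AREG (0.87) and HBEGF (0.53) and the phosphatase DUSP5 (1.05) higher and the feedback inhibitor ERRFI1 lower (-0.54). Immediate early factors had 3 higher and 6 lower of 22 (3 higher and 11 lower without untreated replicate 1, and 1 to 3 higher and 4 to 5 lower when each of the other libraries was left out), the nuclear receptor NR4A2 being lower (-0.94) and IER3 higher (0.94).

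In the BCL2 family and death receptor list, 10 of 29 were lower and 1 higher (2 higher and 11 lower without untreated replicate 1, and 0 to 1 higher and 8 to 11 lower when each of the other libraries was left out). The members that fell were of opposite function, including the survival protein MCL1 (566, 554 and 532 CPM in the untreated libraries and 329.7, 335 and 319 CPM in the CKI libraries, log2 fold change -0.75 ± 0.054 SE, adjusted p = 1.17e-06), the pro-apoptotic BBC3 (12.7, 26.0 and 26.9 CPM in the untreated libraries and 11.3, 12.1 and 11.5 CPM in the CKI libraries, log2 fold change -0.91 ± 0.22 SE, adjusted p = 0.00674) and the ligand TNFSF10. Untreated replicate 1 of BBC3 lay near the CKI libraries, and without it the log2 fold change was -1.18.

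The effect of CKI over 5-FU, from 6 other libraries of the line, gave 736 genes over 2-fold higher (5.26%) and 632 lower (4.51%). Of the 526 genes higher with CKI alone, 208 were called in the same direction over 5-FU, which is 39.5% of the former and 28.3% of the latter list, and 10 were called in the opposite direction. No library is in both comparisons. Of the 309 lower genes, 143 were shared (46.3% and 22.6%) and 2 were opposite. The difference between both effects was itself over 2-fold at an adjusted p under 0.05 for 425 genes upward (3.04%) and 533 downward (3.81%). CYP1A1 was at 5.28, 5.68 and 4.75 CPM in the 5-FU libraries and 64.5, 67.6 and 68.0 CPM with CKI added, and the CKI effect was smaller (log2 difference -2.61 ± 0.20 SE, adjusted p = 5.05e-06). MMP1 was at 300.1, 299.6 and 313 CPM and 391, 422 and 425 CPM, a log2 fold change of 0.44 against 2.94 without 5-FU (difference -2.5 ± 0.088 SE, adjusted p = 1.5e-08). CDKN1A was at 439, 447 and 444 CPM and 174, 171 and 175 CPM, so that it fell over 5-FU and rose without it (difference -1.72 ± 0.097 SE, adjusted p = 4.61e-07).

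By the adjusted p alone, 25.9% of all tested genes were higher and 24.5% lower over 5-FU. Of 12 aryl hydrocarbon receptor targets, 5 were higher and 1 lower over 5-FU (median 0.035, against 0.96 with CKI alone). Cholesterol synthesis had 18 members higher over 5-FU (median 0.73) and NRF2 targets 21 (median 0.86), and liver X receptor targets 5 lower. ABCA1 was at 108, 103 and 117 CPM and 20.1, 16.2 and 17.8 CPM there. The interleukin 1 list, with 4 higher and 2 lower members with CKI alone, had 0 and 6 over 5-FU, and for IL1A the difference of the effects was -2.17 ± 0.18 SE, adjusted p = 9.89e-06. The hypoxia list went from 3 higher and 11 lower to 14 and 3, and VEGFA differed by 1.09 ± 0.12 SE, adjusted p = 5.26e-05. Ribosomal proteins had 22 of 76 lower, near the share over all genes, and 2 higher over 5-FU, with a median of -0.031. Differences between lists were not tested.

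In A431 cells, CKI changed 1901 genes upward (12%) and 1653 downward (10.4%) by over 2-fold among 15881 tested. Of the genes over 2-fold higher in MDA-MB-231, 188 were also called higher in A431 (35.7% of the MDA-MB-231 and 9.89% of the A431 list) and 18 called lower, with 456 of the 526 tested in A431. Of the lower genes, 66 were shared (21.4% and 3.99%) and 25 were called higher in A431, with 258 of the 309 tested there. The effects differed over 2-fold between the lines for 1317 genes upward in A431 (8.87%) and 1428 downward (9.62%) of 14848 tested. These 14848 come from a joint fit of both lines, which a gene could enter through its level in 1 line alone. CYP1A1 rose in both lines (6.28 and 6.77). ABCA1 fell in MDA-MB-231 and rose in A431 (1.11), a difference of 4.32 ± 0.14 SE, adjusted p = 1.16e-09, and ABCG1 did likewise (difference 6.26 ± 0.32 SE, adjusted p = 1.83e-08). By the adjusted p alone, 34.8% of the 13374 genes tested in both lines were higher in A431 and 37.5% lower. All 40 replication genes were lower there, with a median of -1.92 against -0.28, and MCM5 differed by -1.87 ± 0.13 SE, adjusted p = 1.65e-07. Mitosis genes had 35 of 35 members lower in A431, TOP2A differing by -1.32 ± 0.12 SE, adjusted p = 1.25e-06. MMP1, at 0.36 in A431, differed by -2.57 ± 0.24 SE, adjusted p = 1.76e-06, and ATF3, at 4.81 there, by 4.92 ± 0.17 SE, adjusted p = 1.16e-09. Each line was compared with its own untreated cells, and differences between lists were not tested.

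**Figure D5:**
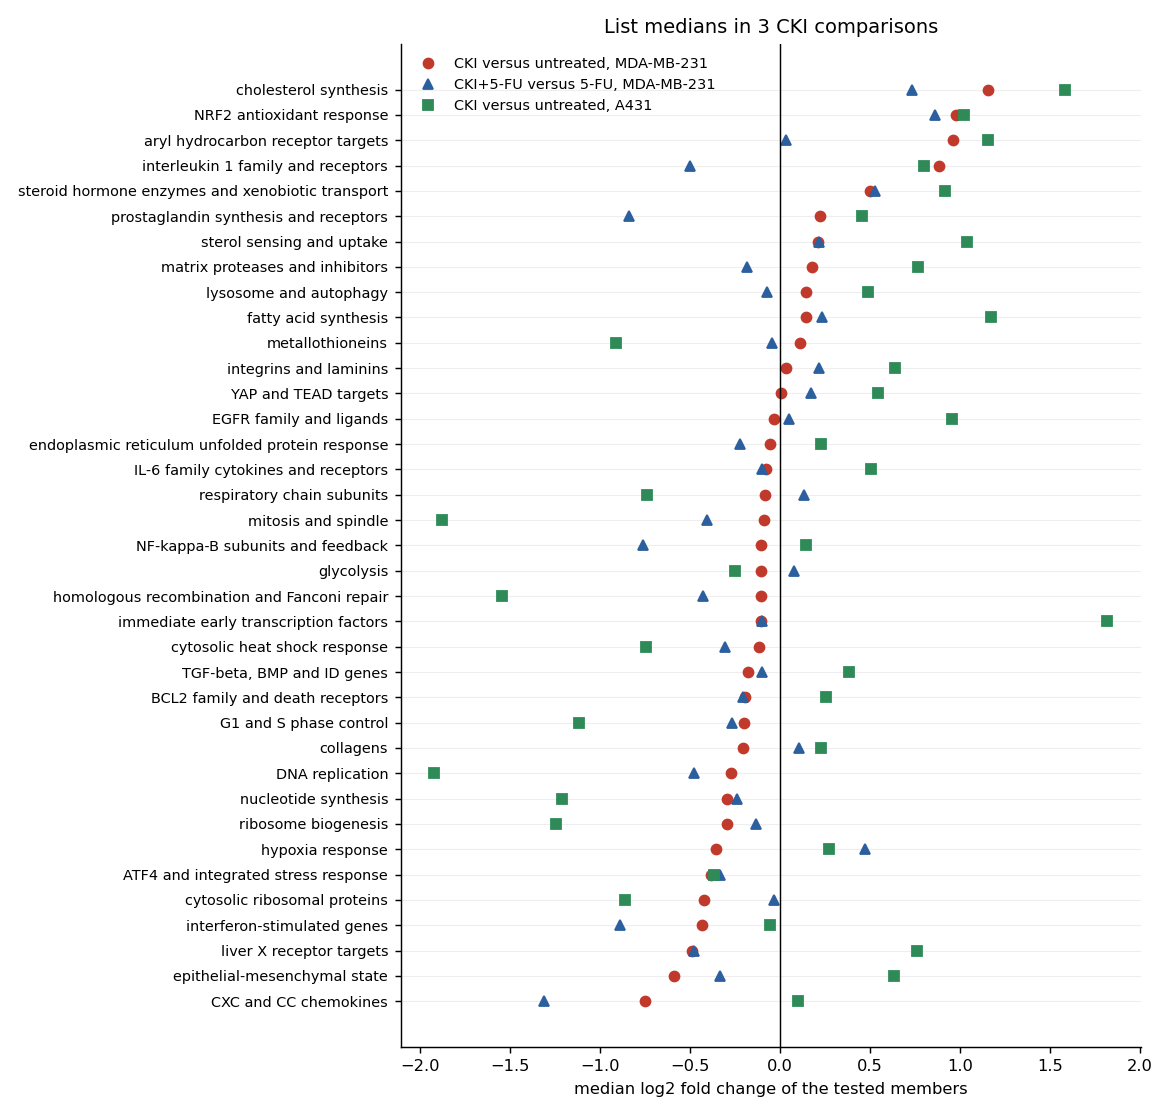
Median log2 fold change of the tested members (x axis) of each gene list (y axis) for CKI versus untreated in MDA-MB-231 (red circles), CKI with 5-FU versus 5-FU in MDA-MB-231 (blue triangles) and CKI versus untreated in A431 (green squares). Cholesterol synthesis is above 0 in each (1.16, 0.73 and 1.58), whereas liver X receptor targets lie at -0.49, -0.48 and 0.76.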

How the data were processed

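Total RNA of the 6 libraries was sequenced as unstranded read pairs. The authors trimmed reads with Trim Galore 0.3.7, aligned them to hg19 with STAR 2.5.3a and deposited raw counts per gene in 1 table of 24566 rows and 27 columns, all mapped to samples. The counting tool and annotation are not given in the sources used here, so overlapping, antisense and near-identical genes are uncertain. Symbols came from a RefSeq table, and coordinates and GC content from a GRCh37 annotation for 99.5% of rows.

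The counts were filtered with filterByExpr, scaled by TMM and tested with edgeR 4.0.16 (R 4.3.3; glmQLFit, glmQLFTest) over the 12 libraries of the line, which share 1 estimate of the spread, at an adjusted p-value of 0.05 and, where stated, an absolute log2 fold change of 1. Levels are TMM-scaled CPM, except marker sums, which are scaled by the total count alone. Each SE is the absolute log2 fold change divided by the square root of the F statistic of its test. The other CKI effects and their differences were fitted likewise, with the A431 effect over its 15 libraries, vehicle and doxorubicin groups included, and its difference over 12. DESeq2 1.42.0, other scalings and filters, GC and length offsets, a replicate block and left-out libraries were alternatives. Scripts were tested on simulated data.

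The members and the 37 gene lists were chosen with earlier results of these data known. Named were genes marked in the lists, the 10 largest changes and 5 smallest adjusted p in each direction among separated genes (the former with at least 5 CPM), and up to 3 members per list and direction. TXNRD1, OAS3, CYP2S1, TM7SF2, LBR, NFE2L2, PIR, PGD, POLE, POLE2, POLA1, CDC6 and GINS1 were named after their values were seen. The promoter windows are of RefSeq, GRCh38.p14. Some genes are not reported here.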

Additional observations from a re-analysis of the deposited data

Results flagged for a closer look

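The response to CKI was not the same in cells given 5-FU, by over 2-fold at an adjusted p under 0.05 in a test of the difference itself, for 958 genes, and between the A431 and MDA-MB-231 lines for 2745 genes. Values in brackets below are log2 differences for genes named by rule, taken as CKI with 5-FU over 5-FU minus CKI alone, or as A431 minus MDA-MB-231.

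Of genes that CKI alone raised, the effect was smaller over 5-FU or turned downward in CYP1A1 (-2.61), MMP1 (-2.5), IL24 (-2.27), IL1A (-2.17), TNFSF15 (-1.94), CDKN1A (-1.72), PSG1 (-1.57), TRNP1 (-1.55), PSG9 (-1.48), HSD11B1 (-1.45) and IL1B (-1.30). These are differences of effects, not of levels. IL24 was at 23.2, 25.9 and 24.8 CPM with 5-FU and 57.2, 63.8 and 61.7 CPM with both agents. With CKI alone it was at 22.2, 24.8 and 24.0 CPM. Levels with both agents also exceeded those with CKI alone in IL1A, HSD11B1, IL1B and MMP1. They lay below them in CYP1A1, CDKN1A, PSG1 and PSG9. Levels of TNFSF15 and TRNP1 over 5-FU are not given here. Of genes that CKI alone lowered, the effect was weaker or turned upward over 5-FU in CHI3L2 (2.24), CEMIP (2.03), VCAM1 (1.67), TNFSF10 (1.12) and VEGFA (1.09). The increase was larger over 5-FU in MT2A (1.03). The decrease was larger over 5-FU in CXCL8 (-1.34) and ID3 (-1.23). A gene that did not pass with CKI alone, but differed downward, was MKI67 (-1.21). The direction turned, with both effects past an adjusted p of 0.05, in CDKN1A (-1.36 over 5-FU), IL1B (-0.51) and VEGFA (0.79).

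Between the lines, genes that CKI raised in MDA-MB-231 and that lay lower in A431 by this measure were MMP1 (-2.57), IL24 (-2.44), TNFSF15 (-2.05), TRNP1 (-1.88), MT2A (-1.82) and IL1A (-1.10). The increase was larger in A431 in CDKN1A (2.18), LSS (1.93), HMOX1 (1.90), INSIG1 (1.71), HSD11B1 (1.09) and CYP1B1 (1.07). Genes lowered in MDA-MB-231 that fell less or rose in A431 were ABCG1 (6.26), CHI3L2 (4.83), ABCA1 (4.32), TNFSF10 (2.43), CXCL8 (2.38), CEMIP (2.29), HAS2 (2.24), TIMP3 (1.77) and VEGFA (1.04). In A431 itself CHI3L2 (log2 fold change 0.68 ± 1.24 SE, adjusted p = 0.651), IL24 (1.13 ± 0.57 SE, adjusted p = 0.0861) and MMP1 (0.36, adjusted p = 0.399) did not pass. The differences of CHI3L2 and IL24 had SEs of 1.28 and 0.76, so their sizes are uncertain. The decrease was larger in A431 in CDC45 (-2.5), MCM5 (-1.87) and MCM2 (-1.0). Genes that did not pass in MDA-MB-231 with all 6 libraries and differed downward in A431 were CCNB1 (-2.02), MKI67 (-1.65) and TOP2A (-1.32). Genes that did not pass in MDA-MB-231 with all 6 libraries and differed upward in A431 were ATF3 (4.92), AHRR (1.99) and PLAU (1.90). With a difference of 1.09, HSD11B1 lost this call in DESeq2 (adjusted p = 0.0679) and under the replicate block (adjusted p = 0.0734).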

How the results depend on the processing

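The main fit called 835 genes over 2-fold changed. Total calls were 831 to 877 under the other scalings, DESeq2, offsets for GC content and length, 1 row per gene identifier or no filter on low counts. With the 6 libraries fitted alone the total was 714. Of the 835 genes, 93.4 to 99.6% kept their call in the former fits and 84.1% in the latter. At least 10 counts in every library gave 504 (303 higher, 201 lower) and kept 59.3% of the 835, since fewer genes were tested. The adjusted p alone gave 5066 (2429 higher, 2637 lower). Leaving out 1 library at a time gave 801 to 926 (496 to 572 higher, 294 to 356 lower) and kept 86 to 87.2% of the 835. Without untreated replicate 1, the difference of the CKI effect with 5-FU was called for 1062 genes and that with A431 for 2953.

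The replicate block gave 815 (518 higher, 297 lower), 1358 for CKI over 5-FU, 3528 in A431, and 911 and 2764 for both differences. The main fit had no replicate block because the study describes none. Deviations of same-numbered untreated and CKI libraries correlated across genes at r = 0.10, 0.018 and 0.066, which does not settle whether the numbers pair the samples. Untreated replicate 1 correlated best with CKI replicate 1, replicate 3 with 3, and replicate 2 with CKI replicate 3. Of 220 genes given by the naming rule, 7 lost their call under the block, 38 with the 6 libraries alone, 9 with library size alone, 4 without untreated replicate 1 and 9 to 20 without each of the other libraries. Calls were gained by 5 genes without untreated replicate 1, 4 with offsets, 3 without untreated replicate 3, 3 with library size alone and 1 without CKI replicate 2.

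TOP2A, which did not pass, changed sign with RLE factors (-0.0048), in DESeq2 (-0.0048) and without a filter (-0.0073), and ranged from -0.054 to 0.10 over the left-out libraries. MKI67 ranged from -0.12 to 0.19, HK2 from -0.12 to 0.14 and CCND1 from -0.25 to 0.001, and no called gene among the 220 changed sign. The cause was not tested. A change in a gene near 3 counts a library, such as IL1RN, was not measurable with precision at this depth.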

Other observations

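The following families were singled out after their values were seen and carry no test beyond that of each gene. All 7 tested pregnancy-specific glycoproteins, placental members of the carcinoembryonic antigen family, were higher (log2 fold changes 1.20 to 4.02, median 3.15), with 7 higher without untreated replicate 1 as well and 6 over 5-FU (median 1.28). They include PSG6 (4.02), PSG7 (3.60) and PSG4 (1.91) beside PSG1 and PSG9. In the untreated libraries PSG6 was at 0.106, 0.093 and 0.0998 CPM, under the floor of 3 counts. PSG7 was near that floor there, at 0.159, 0.093 and 0.399 CPM. The sizes of these 2 changes, and so the top of the range, are uncertain. The sequences of the family are nearly alike, so how the reads divide between its members is uncertain.

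Of 11 tested MHC class II chains, which present antigen to helper T cells, 8 were lower and 0 higher (median -0.94), with 8 lower and 1 higher without untreated replicate 1, and 8 were lower over 5-FU. Among them were HLA-DOA (-1.67), HLA-DPA1 (-1.07) and HLA-DRB1 (-1.04). HLA-DMB, a peptide exchange chain, was at 0.19 and did not pass, but was higher without untreated replicate 1 (0.42, adjusted p = 0.00317). Interferon-induced transmembrane proteins 1 to 3, which block virus entry, were all lower (-1.01 to -0.78), also without untreated replicate 1.

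Of 20 small nucleolar RNA host genes, 13 were lower and 0 higher (median -0.45), with 12 lower and 1 higher without untreated replicate 1 and 9 lower and 2 higher over 5-FU, where 24.5% of all tested genes were lower and 25.9% higher by the same criterion. SNHG29 (-1.08), SNHG1 (-0.98) and SNHG3 (-0.91) changed most. Small nucleolar RNAs lie within these genes, and reads of both cannot be told apart here.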
